A study of Mus musculus with 2 samples.

Results

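The HOX cluster genes of the mouse were taken as all listed genes whose symbol is Hox, a cluster letter (a to d) and a number. The annotation holds 39 such genes and all 39 were found among the 34745 listed genes. They were measured in 2 RNA sequencing libraries of C57BL/6 peritoneal macrophages, 1 labelled Kdm2b-/- and 1 labelled wild type, with 1 library in each group and no replicates. In both groups the cells had been elicited by thioglycollate given 4 days before harvest and then exposed to lipopolysaccharide at 100 ng/ml, for 4 h by the sample characteristics and for 3 h by the treatment protocol. The labels do not say how Kdm2b was deleted, in which cells, at what age, or how many animals were pooled. No untreated library was used here, so levels after lipopolysaccharide are described and not a response to it.

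HOX genes encode homeodomain transcription factors that lie in 4 clusters and pattern the body axis, and their order along the chromosome follows the order in which they are used from head to tail. A gene's number gives its paralogue group, from 1 at the anterior end to 13 at the posterior end. In differentiated cells many HOX genes are kept silent by Polycomb complexes, and in blood some of them, such as Hoxa9 and Hoxb4, are known for roles in progenitor cells. KDM2B is a subunit of the variant Polycomb complex PRC1.1 and binds unmethylated CG dinucleotides through its CXXC domain.

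Most HOX genes were low but above 0. The unit was FPKM, fragments scaled to transcript length and library size, and 36 of the 39 genes were under 1 FPKM in both libraries. Of the 39, 31 were above 0 in both libraries, 6 (15.4%) were listed at 0 in both and 2 (5.13%) at 0 in the wild-type library alone. Over 21556 protein-coding genes, 31.6% were at 0 in both libraries, 5.71% in exactly 1 and 2.92% in the wild-type library alone. Where a pair of values follows a gene, the library labelled Kdm2b-/- comes first and the wild-type library second. The summed HOX level was 11.6 FPKM in the library labelled Kdm2b-/- and 7.68 FPKM in the wild-type library, a ratio of 1.51 with a 95% counting interval of 1.33 to 1.72. Such intervals come from the estimated numbers of fragments, cover counting error only and say nothing of the spread between animals. In whole cell populations, more cells of a type and more RNA per cell cannot be told apart.

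The targeted gene, Kdm2b, stood at 0.326 and 0.205 FPKM, at least 19 and 12 fragments, and the interval of its log2 ratio without a pseudocount (-0.43 to 1.86) included 0. The value did not show the loss that the label implies, and a gene-level value cannot show a deleted exon. Each direction below is therefore that of the library labelled Kdm2b-/-. The libraries also differed in sex-linked transcripts. Xist, the RNA that silences an X chromosome in female cells, stood at 0.00398 and 8.55 FPKM in the library labelled Kdm2b-/- and the wild-type library, and the Y-linked gene Ddx3y at 5.72 FPKM and 0. The sex of the animals and the labelled genotype cannot be told apart in these libraries. The depth read from the steps of the FPKM values was 26800000 and 27300000 fragments. A total of 13158 genes had a mean over both libraries of 0.1 FPKM or more, and their median log2 ratio (library labelled Kdm2b-/- over wild type, from FPKM + 0.1) was 0.15. Scaling the libraries to a median of 0 over genes with a mean of 1 FPKM or more moved it to 0.04.

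The start regions found for HOX genes were mostly rich in CG dinucleotides, the sequence that KDM2B's CXXC domain recognises. RefSeq windows (GRCm38.p6, 250 bases before to 50 after a start) were matched for 22 members, with 24 windows. Most of these members were of the Hoxa and Hoxd clusters. Of the Hoxb cluster only Hoxb1, Hoxb4 and Hoxb8 were matched, and of the Hoxc cluster only Hoxc4 (9 CG), so these clusters are barely covered. The count of CG per window ran from 4 (Hoxa9, Hoxd4 and the first window of Hoxd11) to 45 (Hoxa13), with a median of 14.5, against a median of 7 over 32851 windows of all genes. At least 1 CG stood in all 24 and in 94.6% of all windows, and 17 of the 24 (70.8%) held at least 10, against 43.5% of all windows. Members at 0 did not stand out by a low CG count. The 4 windows of genes listed at 0 in both libraries (Hoxa6, Hoxb1, Hoxd1 and Hoxd12) held 10 to 29 CG, and the window of Hoxb4, the gene with the highest FPKM, held 14.

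3 start regions are printed because the results turn on their genes: Hoxb4 as the highest member, Hoxb1 as the member of the same cluster listed at 0 in both libraries, and Hoxa2 as the member with the largest log2 ratio past the floor. Capitals mark each CG. Hoxb4 is at chr11:96318017-96318316 on the plus strand, Hoxb1 at chr11:96365508-96365807 on the plus strand and Hoxa2 at chr6:52164782-52165081 on the minus strand, all 5′ to 3′.
Hoxb4: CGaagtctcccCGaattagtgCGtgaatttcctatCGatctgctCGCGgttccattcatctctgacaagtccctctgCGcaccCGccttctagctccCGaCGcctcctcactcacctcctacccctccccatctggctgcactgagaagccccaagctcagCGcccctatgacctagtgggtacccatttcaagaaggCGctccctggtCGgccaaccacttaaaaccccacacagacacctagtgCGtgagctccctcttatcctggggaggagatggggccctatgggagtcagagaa
Hoxb1: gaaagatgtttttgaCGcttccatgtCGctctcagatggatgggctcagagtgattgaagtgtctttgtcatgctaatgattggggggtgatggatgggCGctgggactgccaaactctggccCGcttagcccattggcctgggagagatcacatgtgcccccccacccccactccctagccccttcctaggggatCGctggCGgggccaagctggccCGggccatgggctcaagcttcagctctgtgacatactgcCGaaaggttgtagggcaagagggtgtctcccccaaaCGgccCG
Hoxa2: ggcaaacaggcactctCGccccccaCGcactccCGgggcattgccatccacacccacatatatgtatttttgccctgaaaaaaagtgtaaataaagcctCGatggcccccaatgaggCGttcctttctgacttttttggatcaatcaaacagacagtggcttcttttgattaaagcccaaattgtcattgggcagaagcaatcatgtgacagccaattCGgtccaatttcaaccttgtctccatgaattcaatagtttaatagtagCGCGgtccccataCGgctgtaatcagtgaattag
The letters TGATNNAT, a form of the site bound by PBX and HOX proteins together, were searched on both strands. They were found in 4 of the 24 HOX windows (16.7%), those of Hoxa2, Hoxb1, Hoxb8 and the second window of Hoxd11, and in 8.85% of all windows. The free positions NN can hold a CG, so a match can overlap a CG that was counted.

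**Figure D1:**
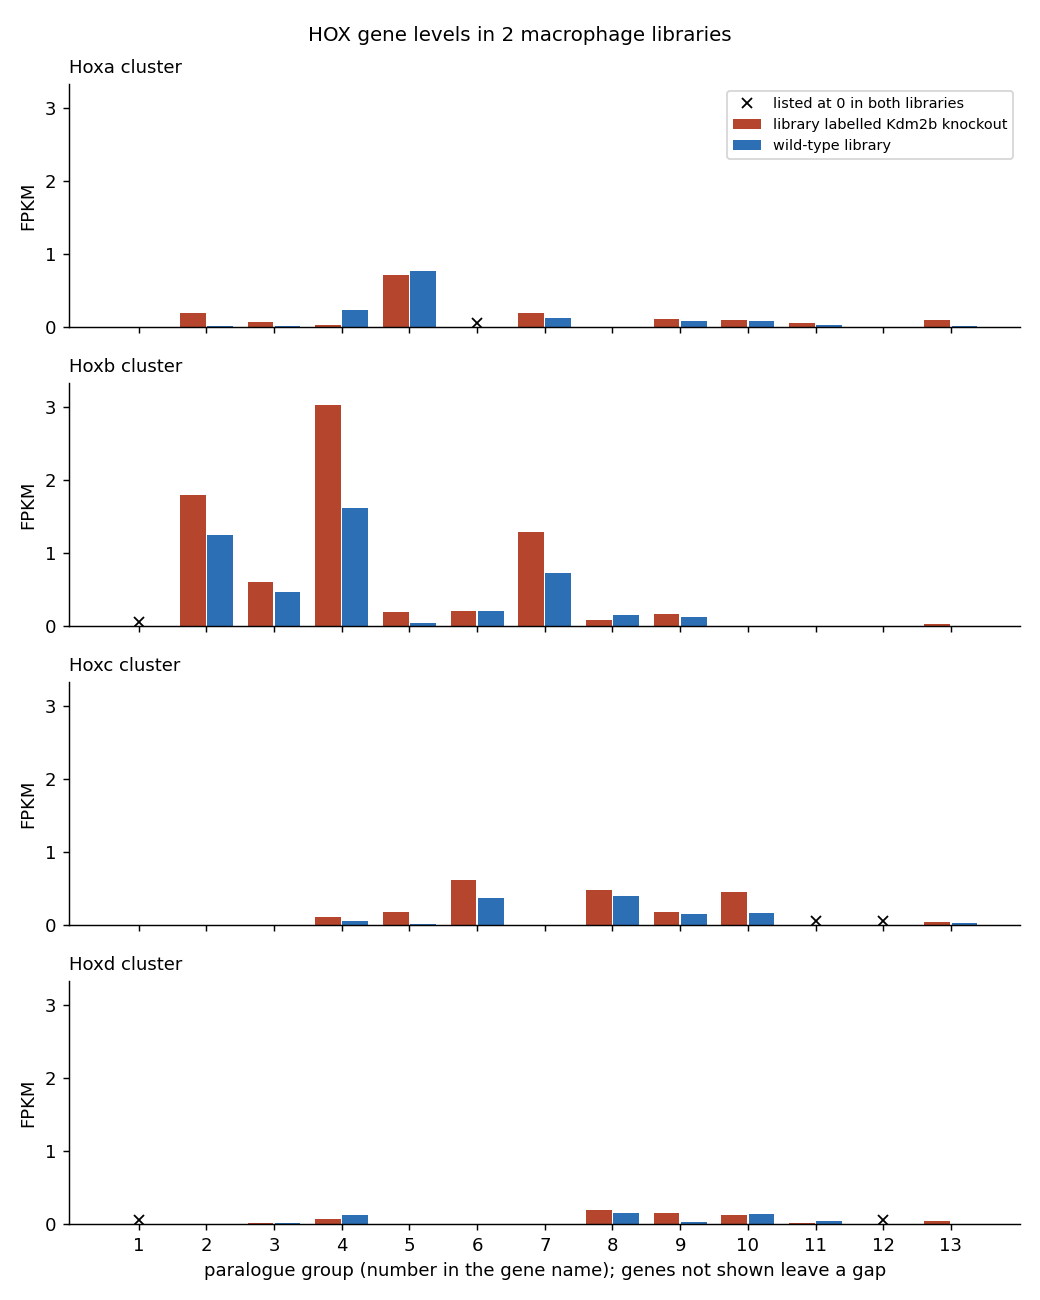
FPKM (linear axis from 0) of the HOX genes described here in the library labelled Kdm2b knockout (red) and the wild-type library (blue), 1 panel per cluster, ordered by paralogue group from anterior (1) to posterior (13); crosses mark the 6 genes listed at 0 in both libraries. Hoxb4 is the tallest in both libraries (3.02 and 1.61 FPKM), and Hoxa5 is the tallest gene of the Hoxa cluster (0.715 and 0.762 FPKM).

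The Hoxb cluster (chromosome 11, 96194316 to 96368256, GRCm38) held the largest share of the HOX signal. Its 10 genes summed to 7.38 FPKM in the library labelled Kdm2b-/- and 4.59 FPKM in the wild-type library, which is 63.5% and 59.7% of all HOX FPKM. The ratio of 1.61 had a 95% counting interval of 1.37 to 1.89. Hoxb4, a factor studied for its effect on blood stem cell expansion, was at 3.02 and 1.61 FPKM, from 208 and 113 fragments. Its log2 ratio without a pseudocount was 0.91, with a counting interval of 0.57 to 1.25. It has 1 annotated transcript and shares no exon base with another annotated gene, and it had the most fragments of the members with 1 transcript.

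Hoxb2, a patterning gene of the hindbrain, followed at 1.79 and 1.24 FPKM. Its interval, 0.09 to 0.95 on the log2 scale without a pseudocount, excluded 0 but held the median of all genes. Of the exon bases of Hoxb2, 27.3% are shared with the antisense gene Hoxb3os. The libraries are not described as strand-marked, so reads of the shared bases could not be told apart. Hoxb7 stood at 1.28 and 0.728 FPKM and its interval, -0.12 to 1.75, included 0. These 3 genes together made up 52.4% of all HOX FPKM in the library labelled Kdm2b-/- and 46.6% in the wild-type library, and 63.5% of the difference between the sums. Hoxb4 alone gave 35.7% of that difference. The other 36 genes summed to 5.54 and 4.10 FPKM, a ratio of 1.35.

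The order of levels within the Hoxb cluster was less sure than the values look. FPKM times the summed length of a gene's transcripts fell on whole steps for most members, so that a gene with several transcripts is divided by more bases than 1 with a single transcript. By this reckoning Hoxb2, with 2 transcripts, had between 114 and 228 fragments in the library labelled Kdm2b-/- and between 81 and 161 in the wild-type library, against 208 and 113 for Hoxb4. Which of these genes had more transcripts per cell was not settled. For genes with several transcripts the ratio between libraries can also depend on which transcripts the fragments matched, and its interval was computed from the fewest fragments.

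Hoxb3 stood at 0.602 and 0.469 FPKM, and 52.9% of its exon bases are shared with an antisense gene, Hoxb3os. The libraries are not described as strand-marked, so reads of such a pair could not be told apart. Hoxb3os itself was at 0.0876 FPKM in the library labelled Kdm2b-/- and listed at 0 in the wild-type library. Hoxb6 had similar values, 0.204 and 0.212 FPKM, with an interval of -1.60 to 1.33 on the log2 scale without a pseudocount. Hoxb9 stood at 0.169 and 0.128 FPKM and Hoxb8, whose product is known for blocking differentiation of myeloid progenitors, at 0.084 and 0.149 FPKM, the latter from at least 4 and 6 fragments. Neither could be told apart between libraries at this depth. Hoxb5 stood at 0.199 and 0.047 FPKM, at least 13 and 3 fragments. At the ends of the cluster, Hoxb1 was listed at 0 in both libraries and Hoxb13, a prostate and tail gene, at 0.0338 FPKM (2 fragments) in the library labelled Kdm2b-/- and 0 in the wild-type library.

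The Hoxa cluster (chromosome 6) summed to 1.58 and 1.38 FPKM, a ratio of 1.14 with a counting interval of 0.81 to 1.61, which included 1. Hoxa5, a regulator of lung and skeletal patterning, held the largest part of it and was close in both libraries, at 0.715 and 0.762 FPKM from 36 and 39 fragments. Hoxa2 and Hoxa4 differed in opposite directions. Hoxa2, a hindbrain and second-arch patterning gene, was at 0.189 FPKM (9 fragments) in the library labelled Kdm2b-/- and 0.0207 FPKM (1 fragment) in the wild-type library. Hoxa4 was at 0.0234 FPKM (1 fragment) and 0.230 FPKM (10 fragments). The intervals of the log2 ratio without a pseudocount, 0.34 to 8.65 for Hoxa2 and -8.74 to -0.48 for Hoxa4, lay on either side of 0, and 24.84 kb separate these genes. For Hoxa2, 15.04% of the exon bases are shared with another gene on the same strand, Gm28308, which was listed at 0 in both libraries. For Hoxa4, 16.0% are shared with the antisense gene Gm29430, also listed at 0 in both.

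The other Hoxa members described here were each under 0.2 FPKM in both libraries. Hoxa7 stood at 0.195 and 0.119 FPKM. Hoxa9, the leukaemia-linked member that marks blood progenitors, was at 0.107 and 0.0851 FPKM, and Hoxa10, its neighbour, at 0.0939 and 0.0868 FPKM. Each of these 2 genes rested on at least 5 and 4 fragments. Their intervals of -1.87 to 2.68 on the log2 scale without a pseudocount included 0 and allowed large differences either way. Hoxa13 (0.0956 and 0.0188 FPKM), Hoxa3 (0.0691 and 0.0113 FPKM) and Hoxa11 (0.0595 and 0.0335 FPKM) were higher in the library labelled Kdm2b-/- with at most 4 fragments each by the fewest-fragment count. On that count these 3 could not be told apart between the libraries. All 3 have several transcripts, so their number of fragments was not settled. Hoxa6 was listed at 0 in both.

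The Hoxc cluster (chromosome 15, 102921103 to 103036852) summed to 2.05 and 1.19 FPKM, a ratio of 1.72 with a counting interval of 1.22 to 2.45. All 7 members above 0 were higher in the library labelled Kdm2b-/-, as were 63.0% of all 17200 genes above 0 in either library. The largest were Hoxc6 at 0.619 and 0.377 FPKM, Hoxc8, a gene of the thoracic region, at 0.474 and 0.394 FPKM, and Hoxc10, a gene of the lumbar region, at 0.449 and 0.173 FPKM. For Hoxc10, 23 fragments stood against 9, and the interval of 0.21 to 2.67 on the log2 scale without a pseudocount excluded 0. Those of Hoxc6 (-0.53 to 1.89) and Hoxc8 (-0.61 to 1.15) did not.

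Hoxc5 stood at 0.179 FPKM in the library labelled Kdm2b-/- and 0.0104 FPKM in the wild-type library, 17 steps against 1, or at least 9 fragments against 1. An annotated transcript of Hoxc5 starts within Hoxc10, and the genes share 166 exon bases, so their reads are not fully separate. Hoxc9 was at 0.174 and 0.146 FPKM and Hoxc4 at 0.109 and 0.0625 FPKM. Toward the posterior end, Hoxc13, which acts in hair follicles, stood at 0.0455 and 0.0298 FPKM (3 and 2 fragments), and Hoxc11 and Hoxc12 were listed at 0 in both libraries.

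The Hoxd cluster (chromosome 2, 74668310 to 74765142) had the lowest sum, 0.616 and 0.518 FPKM, and the ratio of 1.19 had a counting interval of 0.69 to 2.05. No member reached 0.2 FPKM. Hoxd8 was highest at 0.188 and 0.156 FPKM, and Hoxd10, a limb gene, stood at 0.123 and 0.141 FPKM from 6 and 7 fragments. Hoxd9 was at 0.157 FPKM (9 fragments) and 0.0343 FPKM (2 fragments), with an interval of -0.08 to 5.44. Hoxd4 (0.0707 and 0.132 FPKM) and Hoxd11 (0.0167 and 0.0409 FPKM) were lower in the library labelled Kdm2b-/-, and both intervals included 0. Of the exon bases of Hoxd4, 52.3% are shared with other genes. Hoxd3, 62.8% of whose exon bases are shared with other genes, was at 0.0144 and 0.0141 FPKM. Hoxd13, the digit gene at the posterior end, was at 0.0451 FPKM (3 fragments) in the library labelled Kdm2b-/- and 0 in the wild-type library, and Hoxd1 and Hoxd12 were listed at 0 in both.

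**Figure D2:**
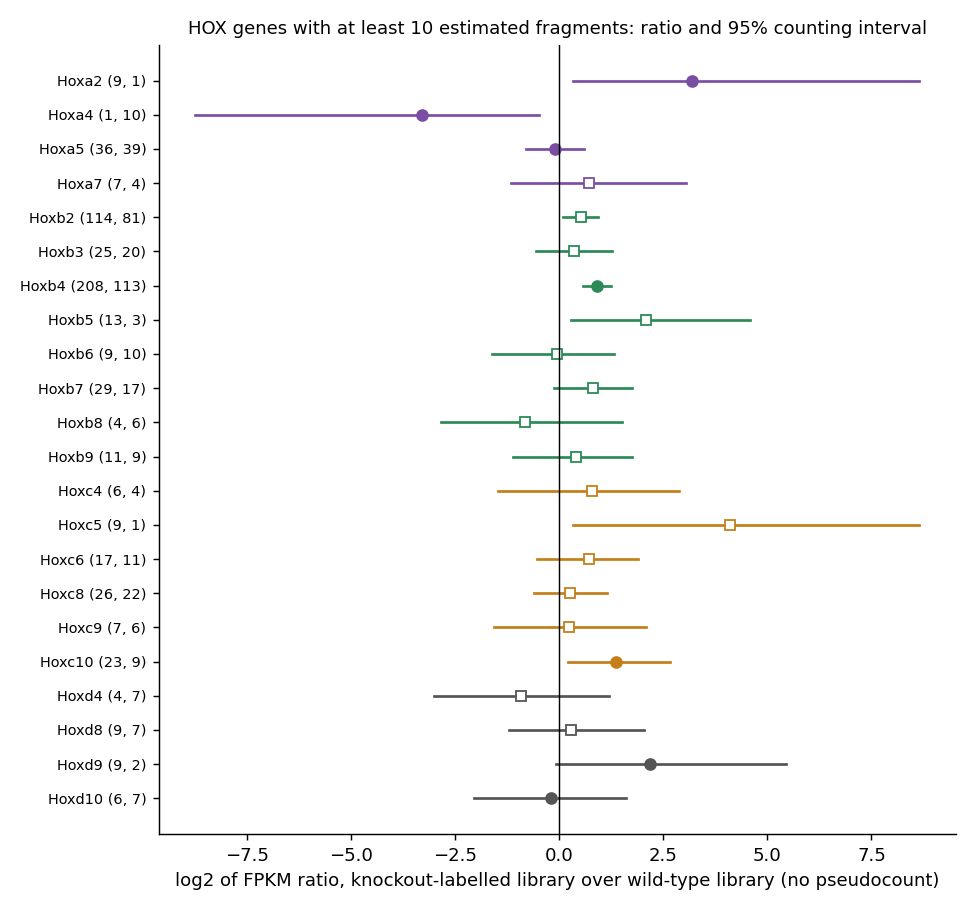
Log2 of the FPKM ratio, library labelled Kdm2b-/- over wild-type library without a pseudocount, for the 22 HOX genes with at least 10 estimated fragments over both libraries; lines are 95% counting intervals, filled circles are genes with 1 annotated transcript, open squares genes with several, colours the clusters, and the numbers beside each name the fragments in the library labelled Kdm2b-/- and the wild-type library. The interval lies above 0 for 6 genes (Hoxa2, Hoxb2, Hoxb4, Hoxb5, Hoxc5 and Hoxc10) and below 0 for Hoxa4. The share of all genes with such intervals was not computed, so whether these counts are unusual is not known. The median log2 ratio of all genes past the floor (FPKM + 0.1) was itself above 0, at 0.15.

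By position, genes listed at 0 in both libraries lay among the anterior, central and posterior groups, but none was of group 13. Of 12 anterior genes (paralogue groups 1 to 4) 2 were at 0 in both libraries, of 11 central genes (groups 5 to 8) 1, and of 16 posterior genes (groups 9 to 13) 3, with 2 more posterior genes at 0 in the wild-type library alone. Anterior genes summed to 5.92 and 3.81 FPKM, central genes to 4.14 and 2.95 FPKM and posterior genes to 1.57 and 0.917 FPKM. The highest posterior gene was Hoxc10. Among group 4, Hoxb4 was far above Hoxa4, Hoxc4 and Hoxd4 in both libraries, the largest of which was Hoxa4 in the wild-type library at 0.230 FPKM. For the 6 genes at 0 in both libraries, 3 fragments, the limit that a count of 0 allows, would have been 0.0442 to 0.128 FPKM in the library labelled Kdm2b-/- and 0.0434 to 0.126 FPKM in the wild-type library, so levels like those of many other members cannot be told from 0.

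How the HOX genes stood beside other genes varied with the processing. No test across samples was made, as each group has 1 library. A gene was called higher or lower by size alone, at least 2-fold on FPKM + 0.1 with a mean of at least 0.1 FPKM. Of the 39 members 19 passed that floor. Of these, 3 (15.8%) were higher in the library labelled Kdm2b-/- (Hoxa2, Hoxb5 and Hoxc10), against 3.81% of all 13158 genes, and 1 (5.26%) was lower (Hoxa4), against 2.69%. Among genes with a mean of 0.1 to 1 FPKM, where all but 3 of the 19 lay, these shares were 7.94% and 5.27%. Hoxa2, Hoxb5 and Hoxa4 passed the floor only through the library where they were higher. In the other library they stood at 0.0207, 0.047 and 0.0234 FPKM. For such genes the floor and the call are not independent, and the shares of all genes rest on the same rule. Of the 19, 13 (68.4%) had a log2 ratio above 0, against 64.8% of all genes and 68.3% of genes at 0.1 to 1 FPKM. The median was 0.24, against 0.15 and 0.23. Under the next 3 settings the HOX share above 0 lay further above that of other genes, and under the subsets after them it went either way. With the libraries scaled to a median log2 ratio of 0 it was 12 of 17 (70.6%), against 53.5% of all genes and 61.0% of genes at 0.1 to 1 FPKM, and the medians were 0.16, 0.04 and 0.13. Equal totals gave 17 of 21 (81.0%), against 72.3% and 72.1%. With the trend with transcript length and GC content removed it was 16 of 19 (84.2%), against 68.9% and 66.8%. Subsets of the members past the floor were set beside the 64.8% of all genes. Of the 6 members with 1 annotated transcript, 3 had a log2 ratio above 0, a lower share. Without Hoxb4 it was 12 of 18 (66.7%). Of the 10 members that share no exon base with another gene, 7 were above 0.

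The calls of higher genes lay close to the thresholds. Hoxa2 had a log2 ratio (FPKM + 0.1) of 1.26 at a mean just over the floor, Hoxb5 one of 1.03 and Hoxc10 one of 1.01. With the libraries scaled to a median log2 ratio of 0, 0 members were called higher and 1 lower, and the shares of all genes turned to 2.78% higher and 3.18% lower. Scaling to equal upper quartiles gave 0 and 1, beside 2.66% and 3.21% of all genes. The folds themselves moved little. With the median scaled to 0, Hoxa2 kept a log2 ratio of 1.18 and lost its call because its mean of 0.0971 FPKM was under the floor, and Hoxb5 and Hoxc10 stood at 0.94 and 0.91. Equal totals gave 4 of 21 members higher, beside 4.77% of all genes, and removing the trend with length and GC content gave 4 of 19, beside 3.90%. Hoxa4 had a log2 ratio of -1.42 before scaling. A pseudocount of 1 FPKM or a floor of 1 FPKM left 0 calls in either direction. With that pseudocount a gene under 1 FPKM in both libraries cannot reach 2-fold, and 36 of the 39 members were under it. The floor of 1 FPKM left 3 members. Of all genes, 0.638% were higher and 0.737% lower with the pseudocount, and 1.93% and 1.52% with the floor. The 0 calls were thus largely fixed by these settings. All 4 called members share exon bases with another annotated gene (Hoxb5 with the antisense Hoxb5os, listed at 0 in both libraries), and of the 10 members past the floor that share none 0 were called in either direction. With so few members, 0 calls is near the share of all genes. Hoxc5 and Hoxd9, with log2 ratios (FPKM + 0.1) of 1.34 and 0.94, lay just under the floor. Of the 14 members above 0 and under the floor, 13 had the higher value in the library labelled Kdm2b-/- and Hoxd11 the lower, against 57.2% of 4042 such genes with the higher value there. These values rest on few fragments, and with the median scaled to 0 the count was 12 of 16, against 50.9%.

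For members with 1 annotated transcript, fragments could be counted directly. The 15 such genes had 300 fragments in the library labelled Kdm2b-/- and 183 in the wild-type library, a log2 ratio of 0.74 with a counting interval of 0.47 to 1.01. Without Hoxb4 the other 14 had 92 and 70, a log2 ratio of 0.42 with an interval of -0.05 to 0.89, which included 0.

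**Figure D3:**
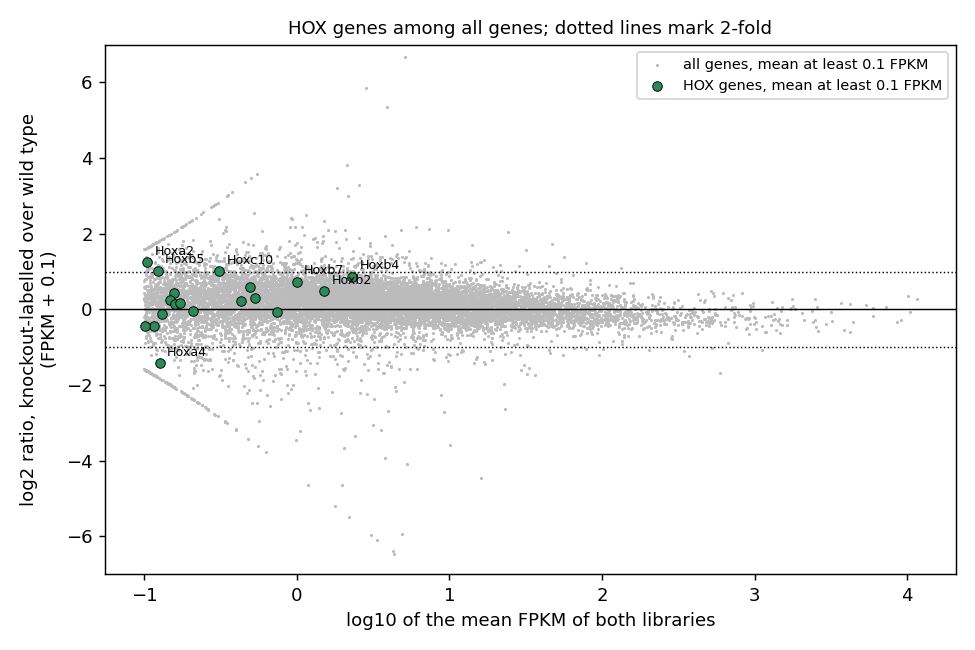
Log2 ratio (FPKM + 0.1, library labelled Kdm2b-/- over wild type) against log10 of the mean FPKM of both libraries for the 13158 genes whose mean reached 0.1 FPKM (grey) and the 19 HOX genes among them (green); dotted lines mark 2-fold. The HOX genes lie at the low end and within the grey cloud, with Hoxa2, Hoxb5 and Hoxc10 on or above the upper line and Hoxa4 below the lower one.

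The genes beside the clusters were mostly higher than the HOX genes, less clearly so for the Hoxb cluster. Of the 24 nearest protein-coding neighbours, 3 on each side of each cluster, 16 were at 1 FPKM or more in both libraries and 5 (Evx1, Evx2, Ttll6, Calcoco2 and Skap1) were listed at 0 in both. Of the 6 neighbours of the Hoxb cluster, 3 were at 0 in both libraries and 3 at 1 FPKM or more. For all 24 the medians were 2.12 and 2.25 FPKM, and those of the HOX genes 0.107 and 0.0625 FPKM. Evx1 and Evx2 are homeobox genes at the posterior ends of the Hoxa and Hoxd clusters. Skap2, beside the Hoxa cluster, stood at 12.4 and 14.3 FPKM, Mtx2, beside Hoxd1, at 9.44 and 12.2 FPKM, and Smug1, beside Hoxc4, at 2.41 and 1.56 FPKM. Near the Hoxa cluster, Hibadh stood at 4.25 and 5.17 FPKM, Tax1bp1 at 36.6 and 35.5 FPKM and Cbx3 at 1.39 and 0.666 FPKM. Near the Hoxb cluster, Atp5g1 stood at 1.80 and 2.16 FPKM, Snx11 at 2.05 and 1.98 FPKM and Cbx1 at 6.16 and 5.63 FPKM. These flanking genes serve general cell functions such as metabolism, vesicle traffic and chromatin packing. Near the Hoxc cluster, Atf7 stood at 1.01 and 0.740 FPKM, Atp5g2 at 1.01 and 1.09 FPKM, Calcoco1 at 4.86 and 4.15 FPKM, Cbx5 at 1.92 and 1.11 FPKM and Hnrnpa1 at 33.6 and 24.4 FPKM. Near the Hoxd cluster, Atp5g3 stood at 36.5 and 39.9 FPKM, Lnpk at 2.18 and 2.34 FPKM and Nfe2l2, a regulator of the oxidative stress response, at 79.6 and 73.4 FPKM. Snx10 was at 29.1 and 14.3 FPKM (log2 ratio 1.02 on FPKM + 0.1, or 0.90 with the libraries scaled to a median of 0) and Hnrnpa3 at 0.433 and 3.48 FPKM (-2.75), and these were the only neighbours at least 2-fold apart before scaling. Near-identical copies of genes such as Hnrnpa3 elsewhere in the genome can share reads with it, so its value is uncertain.

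Other genes inside the clusters were low too, and 0 of them reached 1 FPKM in both libraries. Of 22 listed, mostly noncoding, 13 were at 0 in both libraries, among them Hotair, the noncoding RNA of the Hoxc cluster, and Haglr of the Hoxd cluster. Hotairm1, a noncoding RNA of the Hoxa cluster known from myeloid cells, was the highest at 0.488 and 0.453 FPKM. Hoxaas3 stood at 0.0845 and 0.104 FPKM, Gm15050 at 0.135 and 0.266 FPKM and Hoxd3os1 at 0.161 and 0.116 FPKM. Gm28230, a model that lies within Hoxd3 and overlaps part of Hoxd4, stood at 0.106 and 0.0208 FPKM. None of the 22 was at least 2-fold apart on FPKM + 0.1 with a mean past the floor.

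**Figure D4:**
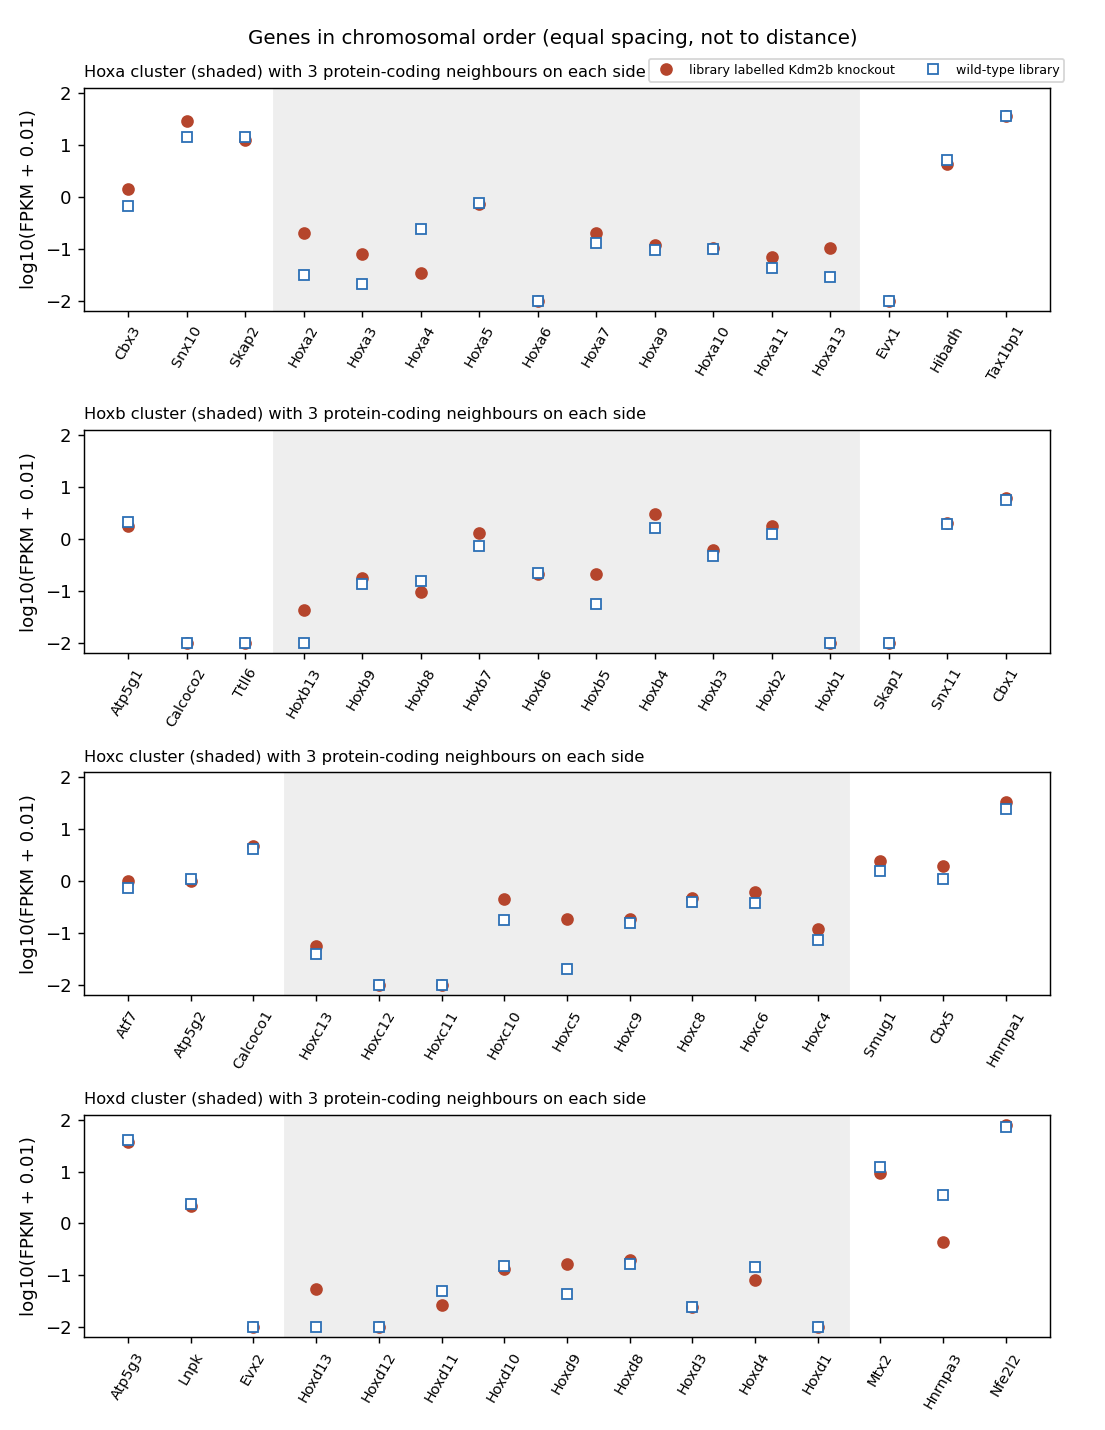
Log10(FPKM + 0.01) of the HOX genes described here (shaded) and the 3 nearest protein-coding genes on each side of each cluster, in chromosomal order with equal spacing, for the library labelled Kdm2b knockout (red circles) and the wild-type library (blue squares). Points at -2 are genes listed at 0, and outside the Hoxb cluster most neighbours lie above the HOX genes between them.

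Genes that act with or upon HOX genes were described by lists. Of all 13158 genes past the floor, 64.8% had log2 ratios (FPKM + 0.1) above 0, with a median of 0.15. For genes at 0.1 to 1 FPKM the values were 68.3% and 0.23. HOX proteins bind DNA with cofactors of the PBX, MEIS and PKNOX families. Of 9 cofactor genes 8 passed the floor, 8 of 8 had log2 ratios (FPKM + 0.1) above 0, with a median of 0.46, and 0 were 2-fold apart. Meis1, the partner of Hoxa9, stood at 0.179 and 0.0702 FPKM (0.72), Pknox2 at 0.574 and 0.373 FPKM (0.51) and Meis2 at 0.340 and 0.210 FPKM (0.50). The 18 genes of MLL, trithorax and elongation factors, which keep HOX genes on, had a median of 0.45, with 16 above 0 and 0 at least 2-fold apart. Hcfc1 (2.48 and 1.25 FPKM, 0.94), Kmt2a, which encodes the methyltransferase MLL1 (2.54 and 1.33 FPKM, 0.89), Kdm6b, a demethylase of the Polycomb mark (2.64 and 1.48 FPKM, 0.79), and Dot1l (1.93 and 1.11 FPKM, 0.74) had the largest ratios.

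All genes past the floor had a median log2 ratio (FPKM + 0.1) of 0.15. Above 0 were 64.8% of them, at least 2-fold higher 3.81% and 2-fold lower 2.69%. Of the genes of PRC1.1 and canonical PRC1, 20 of 21 passed the floor, with a median of 0.33 and 16 above 0. Bcorl1, a corepressor of PRC1.1, was the 1 at least 2-fold higher (0.871 and 0.378 FPKM, 1.02, or 0.91 with the libraries scaled to a median of 0), and 0 were 2-fold lower. Next in size were Pcgf2 (0.213 and 0.0697 FPKM, 0.88) and Phc1 (0.789 and 0.406 FPKM, 0.81), both of canonical PRC1, and Bcor (8.70 and 5.54 FPKM, 0.64), the main corepressor of PRC1.1. The 12 genes of PRC2, which writes the repressive mark on histone H3, had a median of 0.12 with 8 above 0 and 0 at least 2-fold apart. Epop, a PRC2 cofactor, stood at 0.435 and 0.840 FPKM (-0.81), and Ezh2, the methyltransferase, at 1.17 and 0.777 FPKM (0.54). Jarid2 stood at 5.41 and 4.10 FPKM (0.39) and Ezh1, the second methyltransferase, at 2.76 and 2.22 FPKM (0.30). Among inducers of HOX genes, the caudal-type genes Cdx1, Cdx2 and Cdx4 were listed at 0 in both libraries, and the retinoic acid receptor genes stood at 0.767 and 0.657 FPKM for Rara, 0.0492 and 0.181 FPKM for Rarb and 2.47 and 1.57 FPKM for Rarg.

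Other developmental factor genes that are known Polycomb targets in stem cells included 36 of 85 (42.4%) at 0 in both libraries, beside 6 of 39 (15.4%) of the HOX genes. The difference was not tested. Of the 19 past the floor, 15 (78.9%) had a log2 ratio (FPKM + 0.1) above 0 and the median was 0.52. Over all genes the values were 64.8% and 0.15, and over genes at 0.1 to 1 FPKM 68.3% and 0.23. Of the 19, 4 were at least 2-fold higher in the library labelled Kdm2b-/- and 0 were 2-fold lower. By the same rule 3.81% of all genes were higher and 2.69% lower. Of genes at 0.1 to 1 FPKM, 7.94% were higher and 5.27% lower. Among the 4 were Msx1 (0.489 and 0.115 FPKM, 1.45), Hand2 (4.66 and 1.99 FPKM, 1.19) and Tbx18 (0.179 and 0.0306 FPKM, 1.09). The summed level of the list was 30.3 and 20.4 FPKM, a ratio of 1.49, near the 1.51 of the HOX genes.

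Markers of cell types other than macrophages were present in both libraries. Their part in the HOX values was not tested. Of all genes past the floor, 64.8% had a log2 ratio above 0. The 8 macrophage markers summed to 14208 and 11923 FPKM, 5 with a log2 ratio above 0 and 3 below. Among them the lysozyme gene Lyz2 stood at 11409 and 8945 FPKM and Csf1r, the receptor that macrophages need to survive, at 33.6 and 28.2 FPKM, so the labelled cell type had its defining markers. The 10 fibroblast and stromal markers summed to 342 and 295 FPKM, 9 with a log2 ratio above 0 and 1 below. Their median log2 ratio (FPKM + 0.1) was 0.71, against 0.15 over all genes past the floor. Of these 10, 4 were at least 2-fold higher in the library labelled Kdm2b-/- and 0 lower, against 3.81% and 2.69% of all genes. The 4 were Col1a1 (16.0 and 3.63 FPKM), Col1a2 (24.2 and 9.67 FPKM), Col3a1 (22.9 and 9.54 FPKM) and Dpt (1.17 and 0.447 FPKM). Dcn, the most abundant, was at 251 and 248 FPKM. The 10 mesothelial markers summed to 124 and 125 FPKM, 3 with a log2 ratio above 0 and 7 below, and 0 were 2-fold apart. The 6 endothelial markers summed to 3.14 and 2.51 FPKM, and Pecam1, a defining one, was at 0.0291 and 0.0245 FPKM. Of the 3 past the floor, 2 had a log2 ratio (FPKM + 0.1) above 0 and 1 below, and 0 were 2-fold apart. These were Kdr (1.41 FPKM in the library labelled Kdm2b-/-, log2 ratio 0.46), Vwf (1.21 and 0.653 FPKM, 0.79) and Cdh5 (0.487 and 0.828 FPKM, -0.66).

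B cell markers were lower in the library labelled Kdm2b-/-, at sums of 2.87 and 27.3 FPKM. Of the 4 past the floor, 3 (Igkc, Ighm and Cd79a) were at least 2-fold lower, against 2.69% of all genes. T and NK cell markers summed to 2.76 and 6.55 FPKM, nearly all of it from Lck, which was 2-fold lower, while the genes of the T cell receptor complex Cd3d, Cd3e and Cd3g have a listed value of 0 for each library. Granulocyte and mast cell markers summed to 15.7 and 16.0 FPKM, with Ly6g and Mpo at 0 in both, and 1 of 4 past the floor, Siglecf, was 2-fold lower. Progenitors are the blood cells best known for HOX expression. Of 8 progenitor markers only Cd34 (3.30 and 2.26 FPKM) and Gata2 (0.228 and 0.125 FPKM) passed the floor, and 0 were 2-fold apart. Cd34 is also made by stromal and endothelial cells. Kit stood at 0.0461 and 0.0311 FPKM, Flt3 at 0.00604 FPKM and 0, and Mecom was listed at 0 in both.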

How the data were processed

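Expression was read as FPKM per Ensembl gene, deposited by the authors per the file headers. HISAT2 2.0.4, StringTie 1.3.0, edgeR and the builds GRCm38.p4 and mm10 appear in the submitters' processing notes, without roles. Symbols and coordinates came from GENCODE M21 (GRCm38; 34267 IDs matched, 478 did not), and start windows from RefSeq.

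For genes with 1 annotated transcript and under 20 fragments, FPKM times length was a whole multiple of 1 step, within 0.02, for 92.6% of 1505 genes in the library labelled Kdm2b-/- and 92.2% of 1444 in the wild-type library. For members with several transcripts, FPKM times summed transcript length was whole, within 0.05, for 15 of 23. That product, divided by the number of transcripts and rounded up, was taken as the fewest fragments. Exact Clopper-Pearson 95% intervals rest on these. They hold counting error alone, and fragments copied by PCR are not independent.

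Log2 ratios used a pseudocount of 0.1 FPKM, which makes changes of low genes look smaller, and a floor of 0.1 FPKM on the mean. Members and lists were chosen with earlier results of these data known. Named genes were every HOX gene above 0, up to 4 per list by size of log2 ratio, and neighbours above 0.1 FPKM in either library. Some genes that this rule names are not reported here. Other genes were named after their values were seen. Alternatives varied the pseudocount, floor, scaling, fold threshold and the trend with length and GC content. Subsets of members were added after seeing the data. Calculations were tested on simulated data, with Python 3.11.15, numpy 2.4.6, pandas 2.3.3 and scipy 1.17.1.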

Additional observations from a re-analysis of the deposited data

How the results depend on the processing

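No paired analysis was possible because each group has 1 library. The 3 HOX genes called higher in the library labelled Kdm2b-/- became 0 with a pseudocount or a floor of 1 FPKM, with the libraries scaled to a median log2 ratio of 0 or to equal upper quartiles, at a 4-fold threshold, and among members that share no exon base with another gene (a subset chosen after seeing the data), and became 6 of 19 (31.6%) at a 1.5-fold threshold, where 14.1% of all genes passed. The count was 4 with equal totals, with no floor, and after removal of the length and GC trend. Under the scalings to a median of 0 and to equal upper quartiles Hoxa2 kept log2 ratios of 1.18 and 1.17 and was lost at the floor. The 1 gene called lower became 0 with a pseudocount or a floor of 1 FPKM, at a 4-fold threshold and among members that share no exon base. With a pseudocount of 1 FPKM, genes under 1 FPKM in both libraries cannot reach 2-fold, and 0.638% of all genes were higher and 0.737% lower. A floor of 1 FPKM left 3 members, beside 1.93% and 1.52% of all genes. The counts of 0 there were largely fixed by the settings. With under 0.1 FPKM in place of 0, 16 members rather than 6 counted as absent in both libraries and 14 rather than 31 as present in both. With under 3 fragments, 20 counted as present in both. The median log2 ratio of 0.24 moved to 0.15 with equal upper quartiles, to 0.38 with equal totals and to 0.0803 with a pseudocount of 1 FPKM, while the median of all genes moved from 0.15 to 0.02, 0.24 and 0.09. The ratios of summed FPKM moved by less than their counting intervals under every scaling and subset tried. The sign of the log2 ratio changed for 2 of 33 members under each scaling and for 3 of 19 with the length and GC trend removed, and none of these was a called gene. Of the 33 members above 0, 11 had fewer than 10 fragments over both libraries by the fewest-fragment count. On that count their differences could not be told from counting error. The number of fragments of genes with several transcripts was not settled.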
